A study of Homo sapiens with 6 samples.

Results

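Collagens and laminins build the matrix that surrounds cells. A collagen molecule is a helical trimer of alpha chains, and each chain is the product of its own COL gene. Fibril-forming collagens assemble into fibers, network collagens and laminins make up the basement membrane, and laminins are trimers of an alpha, a beta and a gamma chain. The chains of 1 trimer must be made in the same cell, so the levels of partner genes are of interest together. The members were chosen by name as the autosomal genes (chromosomes 1 to 22) that encode a collagen alpha chain or a laminin chain, and they came to 54 of 34891 autosomal genes (36532 genes in all). Of these, 42 were collagen and 12 were laminin genes.

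RNA was measured in 4 cell lines grown from atypical teratoid rhabdoid tumors (AT/RT), a malignant brain tumor of young children that is defined by loss of the chromatin remodeling subunit SMARCB1. All 4 lines, named CHLA 02 and CHLA 04 to CHLA 06, grew in DMEM:F12 medium with EGF, basic FGF and B-27, with no treatment, no transgene and no control line. The study places CHLA 02, CHLA 04 and CHLA 05 in a neurogenic AT/RT group and CHLA 06 in another group. A single library was made from CHLA 02 and from CHLA 05, whereas CHLA 04 and CHLA 06 were each sequenced as 2 technical replicates, so every line was 1 biological sample. Differences between lines are therefore described with fold rules and no test, and an SD (n = 2) is the spread between technical replicates only. Wilson intervals and read floors cover counting error only.

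Values are TPM, a level scaled to transcript length and library total, summed over the transcripts of a gene, and gene positions are those of GRCh38. Between 10265899 and 20520229 reads per library were recovered from the TPM values, so that a read on a 1000 bp transcript equalled 0.117 to 0.236 TPM. SMARCB1 itself was measured at 13.5 to 26.2 TPM in the 6 libraries, while the study describes all 4 lines as lacking its expression. An RNA level summed over transcripts does not show whether an intact gene or protein was present. VIM, which encodes vimentin, was measured at 4629 to 19464 TPM and the neural progenitor marker NES at 5.21 to 27.6 TPM, while the neural stem cell factor SOX2 did not exceed 4.03 TPM in any library. The neural factor PAX6 was at 15.8 to 36.9 TPM in 3 lines and below 1 TPM in both CHLA 06 libraries. The neuronal marker TUBB3 was at 205 to 455 TPM in the 6 libraries under its main gene ID, and at 3.55 to 30.4 TPM under another. The endothelial markers PECAM1, CDH5 and TIE1 were at or below 0.103 TPM in every library, and KDR did not exceed 0.596 TPM. The other endothelial markers on the list were higher in some lines. VWF was at 3.70 and 2.06 TPM in the CHLA 04 replicates and 0.778 TPM in CHLA 02, and ESAM reached 29.0 TPM in CHLA 05.

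CHLA 02 occupied a particular place among the lines over all genes. Of 1775 autosomal genes that differed 4-fold between CHLA 04 and CHLA 06, CHLA 02 lay between these lines for 93.7%, and CHLA 05 did so for 71.4%. On a TPM scale where CHLA 04 is 0 and CHLA 06 is 1, the median position of CHLA 02 was 0.624, with quartiles of 0.462 and 0.770. For the members, CHLA 02 lay between CHLA 04 and CHLA 06 in 12 of 13 such genes (9 of 13 for CHLA 05), and the median position of CHLA 02 was 0.687. The reason was not tested. Counts for spread, for higher in CHLA 05, and for higher or lower in CHLA 06 are given with and without CHLA 02. The other counts by fold rules include it.

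The sequences next to the starts of 5 line-variable chains are shown first, as 4 stretches, since these genes mark different lines. They were read from the RefSeq promoter table (build GRCh38.p14), which held 39 of the 54 members, and they lie upstream of the gene's start in that table and of annotated starts near it, or between the starts of both genes. Capitals mark the CCAAT box, the GC box motif GGGCGG and the TATA box motif TATAAA on either strand, and no match of 1 motif overlapped a match of another. COL4A1 and COL4A2 are transcribed away from each other from a shared stretch on chromosome 13 (chr13:110307158-110307257, plus strand), which a further COL4A2 transcript spans as an intron. COL11A1 leads the fibril-forming collagens of CHLA 05 (chr1:103108523-103108672, minus strand). COL9A2 is high in CHLA 02 and CHLA 06 (chr1:40317389-40317536, minus strand, inside an intron of a minor COL9A2 transcript), and COL26A1 is highest in CHLA 04 (chr7:101362670-101362819, plus strand). The last 3 were chosen after their values were seen.
COL4A1 and COL4A2: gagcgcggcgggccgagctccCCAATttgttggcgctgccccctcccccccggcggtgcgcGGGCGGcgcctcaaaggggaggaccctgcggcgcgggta
COL11A1: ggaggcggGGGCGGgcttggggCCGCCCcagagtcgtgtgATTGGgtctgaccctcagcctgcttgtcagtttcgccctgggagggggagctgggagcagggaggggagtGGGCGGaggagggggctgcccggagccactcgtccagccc
COL9A2: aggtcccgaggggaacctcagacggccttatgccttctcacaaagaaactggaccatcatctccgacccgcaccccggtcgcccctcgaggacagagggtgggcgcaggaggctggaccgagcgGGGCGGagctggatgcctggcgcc
COL26A1: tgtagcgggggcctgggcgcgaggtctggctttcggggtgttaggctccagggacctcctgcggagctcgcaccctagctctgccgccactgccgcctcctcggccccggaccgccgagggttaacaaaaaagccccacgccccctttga

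The shared COL4A1 and COL4A2 stretch was 78.0% G and C and held 1 CCAAT and 1 GGGCGG. In windows of the same 100 bases upstream of all 35116 starts in the table, 18.1% held a CCAAT and 31.3% a GGGCGG. The COL11A1 stretch held 3 GGGCGG and 1 CCAAT, where 36.8% and 23.5% of the windows of 150 bases held at least 1 of them. The COL9A2 stretch held 1 GGGCGG, found in 36.6% of windows of 148 bases. The letters TATAAA were in none of the 4 stretches, against 4.99% to 6.71% of all windows of these lengths.

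Of the 54 chains, 40 (74.1%) reached a mean of at least 1 TPM in at least 1 line, compared with 44.3% of all autosomal genes. The collagens that did not were COL4A3, COL4A4, COL6A5, COL6A6, COL8A1, COL8A2, COL10A1, COL13A1, COL17A1, COL19A1, COL20A1, COL25A1 and COL28A1. Their values in any library did not exceed 0.821 TPM, the level of COL28A1 in CHLA 04 replicate 1. Autosomal network collagens other than COL4A1 and COL4A2 were all in this group.

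The chains were variable between lines. For 23 of the 40 measured chains (57.5%), the highest line exceeded the lowest by at least 2 on the log2(TPM + 2) scale (4-fold), the call used for spread, compared with 16.4% of all genes tested. The median difference between the highest and lowest line was 2.34 for the chains on this scale and 0.88 for all 15471 genes tested. With CHLA 02 left out, the number was again 23, beside 16.2% of all genes. The rule held for 17 of 29 collagen chains (58.6%) and 6 of 11 laminin chains (54.5%). The heat map of the 40 chains shows that many collagens formed blocks by line. LAMB2 was high in every library, and LAMC1 was present in every library but lower in CHLA 04.

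**Figure D1:**
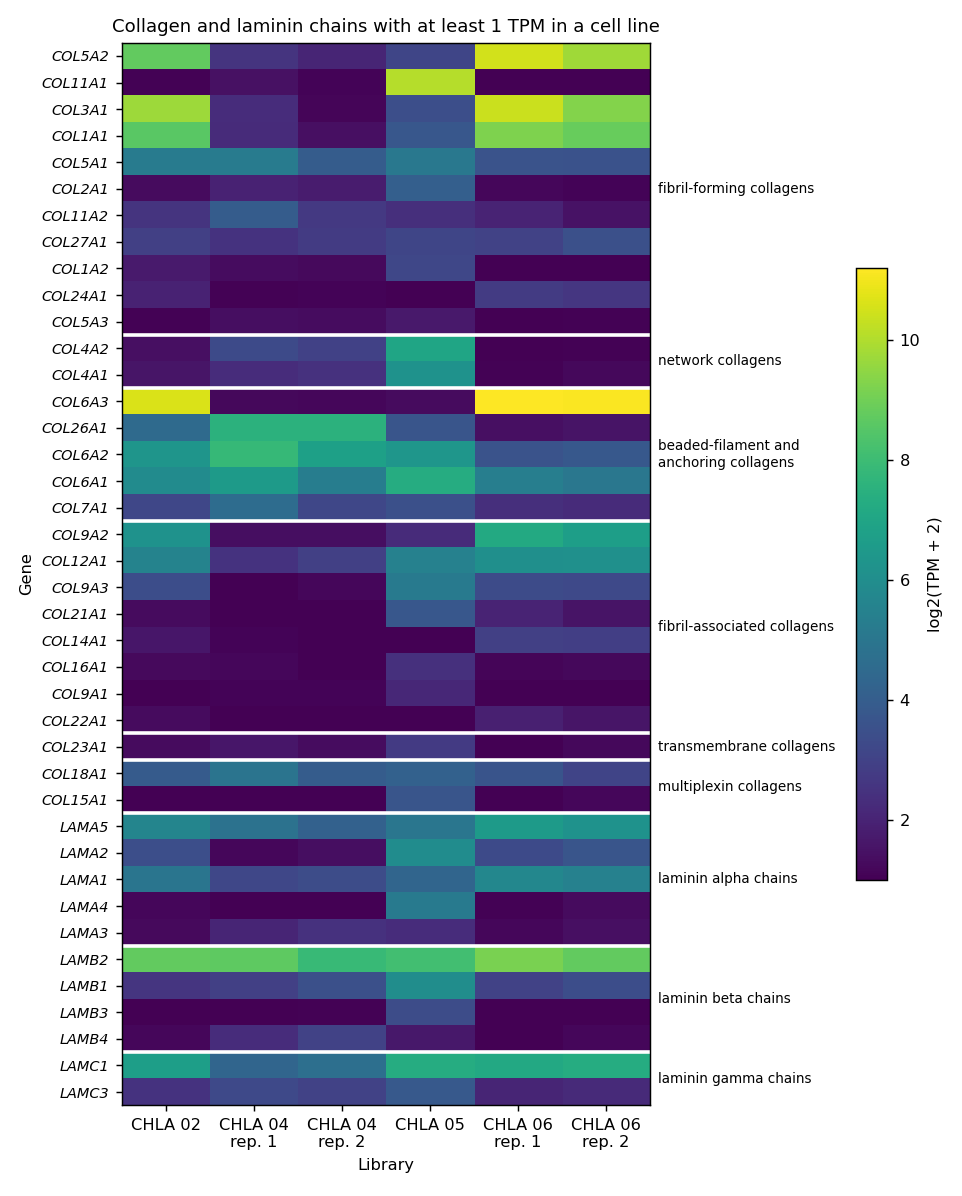
Heat map of log2(TPM + 2) for the 40 collagen and laminin chains with at least 1 TPM in a cell line (rows, grouped by class and ordered by their highest line) in the 6 libraries (columns). COL6A3, COL5A2, COL3A1 and COL1A1 are bright in CHLA 02 and both CHLA 06 libraries, COL11A1 and the COL4A1 and COL4A2 pair in CHLA 05, and LAMB2 in all 6.

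The lines differed in the amount and the kind of collagen message. Summed over the 42 collagen genes, the level was 3611 TPM in CHLA 02, 648 and 404 TPM in the CHLA 04 replicates, 1752 TPM in CHLA 05, and 6076 and 4511 TPM in the CHLA 06 replicates. The line means were thus 526 ± 172 TPM (SD, n = 2) in CHLA 04 and 5294 ± 1106 TPM (SD, n = 2) in CHLA 06, and the replicates of these lines did not overlap with any other line. CHLA 06 exceeded the mean of the other 3 lines by 1.43 on the log2 scale, and by 2.22 when CHLA 02 was left out. COL6A3 provided 44.2% of the collagen TPM in CHLA 02 and 43.95% in CHLA 06, COL26A1 provided 35.6% in CHLA 04, and COL11A1 provided 61.1% in CHLA 05.

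By class, fibril-forming collagens made up 47.2% of collagen TPM in CHLA 02, 51.0% in CHLA 06 and 66.4% in CHLA 05, but 9.10% in CHLA 04. The class of beaded-filament and anchoring collagens, in which COL26A1 was counted, made up 83.3% in CHLA 04. COL26A1 gave 42.7% of that class there. Autosomal network collagens reached 11.4% in CHLA 05, where COL4A2 and COL4A1 gave 127 and 72.0 of their 200.1 TPM, and were at most 2.09% in the other lines. COL4A5, a network chain on chromosome X, is outside these sums and was at 20.1 to 71.4 TPM in the 6 libraries. Laminin levels were closer together. Their sum was 625 TPM in CHLA 02, 478 and 310.4 TPM in the CHLA 04 replicates, 667 TPM in CHLA 05, and 873 and 724 TPM in the CHLA 06 replicates, with CHLA 06 exceeding the mean of the others by 0.51 on the log2 scale. Beta chains provided between 52.2% (CHLA 05) and 84.7% (CHLA 04) of laminin TPM.

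**Figure D2:**
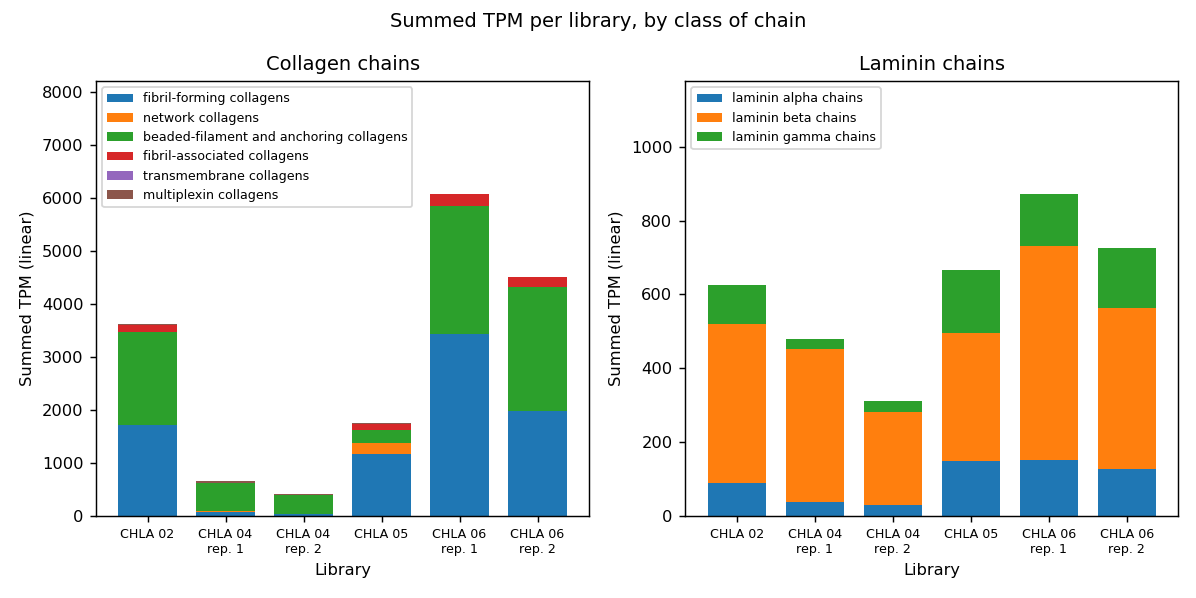
Summed TPM on a linear scale (bars from 0) of collagen chains (left) and laminin chains (right) in each of the 6 libraries, divided by class. Collagen sums run from 404 TPM in a CHLA 04 replicate to 6076 TPM in a CHLA 06 replicate, and laminin sums from 310.4 to 873 TPM in the same 2 libraries.

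A set of 5 collagens was high in CHLA 02 and CHLA 06 and low in CHLA 04 and CHLA 05. COL6A3 (chr2:237324003-237414375, minus strand), which encodes the long chain of the collagen VI microfibril, was at 1597 TPM in CHLA 02 (Wilson 95% interval 1585 to 1609.9), 0.337 and 0.280 TPM in the CHLA 04 replicates, 0.478 TPM in CHLA 05, and 2363 and 2291 TPM in the CHLA 06 replicates. It was the highest collagen of all and ranked at percentile 99.87 of the genes tested in CHLA 06 and at percentile 7.13 in CHLA 05. COL3A1 (chr2:188974320-189012746, plus strand), whose product forms fibrils of extensible tissues, was at 841 TPM in CHLA 02, 2.91 and 0.231 TPM in CHLA 04, 8.997 TPM in CHLA 05, and 1332 and 628 TPM in CHLA 06. COL5A2 (chr2:189031896-189179879, minus strand), a chain of the collagen V that starts and limits fibrils, was at 428 TPM in CHLA 02, 3.78 and 2.14 TPM in CHLA 04, 6.67 TPM in CHLA 05, and 1465 and 868 TPM in CHLA 06. The 2 pairs of replicates did not overlap for any of these genes, although the CHLA 06 replicates of COL3A1 differed by 1.08 on the log2(TPM + 2) scale.

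COL1A1 (chr17:50183289-50201632, minus strand), the main chain of collagen I, was at 387 TPM in CHLA 02, 2.76 and 0.679 TPM in CHLA 04, 11.5 TPM in CHLA 05, and 600.3 and 459 TPM in CHLA 06. COL9A2 (chr1:40300487-40317816, minus strand), a chain of the collagen IX that coats cartilage fibrils, was at 70.7 TPM in CHLA 02, 0.601 and 0.573 TPM in CHLA 04, 2.83 TPM in CHLA 05, and 143 and 103 TPM in CHLA 06. For these 5 genes the lower of CHLA 02 and CHLA 06 exceeded the higher of CHLA 04 and CHLA 05 by 3.91 (COL9A2) to 9.33 (COL6A3) on the log2(TPM + 2) scale. This pattern, a rule added after the values were seen, held for 5 of 40 chains (12.5%) and for 4.67% of all genes tested. The opposite pattern held for COL4A2 alone among the chains (2.50%), beside 2.87% of all genes.

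The fibroblast and mural marker list moved in part with this set. DCN, which encodes the collagen-binding proteoglycan decorin, was at 20.1 TPM in CHLA 02, 1.71 and 0.281 TPM in CHLA 04, 0 in CHLA 05, and 42.9 and 30.2 TPM in CHLA 06. THY1 was at 6.00 TPM in CHLA 02, 0 and 0.204 TPM in CHLA 04, 1.33 TPM in CHLA 05, and 8.65 and 12.4 TPM in CHLA 06. These were 2 of the 8 measured entries of the list, and PDGFRA went the other way, at 2.57 to 4.30 TPM in CHLA 02 and CHLA 06 and 12.6 to 24.9 TPM in CHLA 04 and CHLA 05. PDGFRB also differed 4-fold between CHLA 05 (23.4 TPM) and CHLA 06 (4.45 and 3.85 TPM). The list without its highest gene ACTA2 summed to 59.0 TPM in CHLA 02, 46.2 to 47.7 TPM in CHLA 04, 74.3 TPM in CHLA 05 and 69.2 to 76.6 TPM in CHLA 06, and LUM and FAP stayed at or below 1.67 TPM. In bulk RNA a larger share of cells with a gene and more RNA of it per cell cannot be told apart, and the part of these markers in the collagen levels was not tested.

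Without CHLA 02 the same contrast appears as CHLA 06 against CHLA 04 and CHLA 05. With all 4 lines, CHLA 06 exceeded every other line by at least 1 on the log2(TPM + 2) scale for COL5A2 and COL14A1, which are 2 of 40 chains (5.00%) beside 1.59% of all genes. With CHLA 02 left out, it did so for 9 chains beside 7.83% of all genes, namely COL1A1, COL3A1, COL5A2, COL6A3, COL9A2, COL14A1, COL24A1, LAMA1 and LAMA5. COL14A1, which encodes a collagen that binds to the surface of fibrils, was at 1.08 TPM in CHLA 02, 0.167 and 0.0420 TPM in CHLA 04, 0 in CHLA 05 (0 reads, which allows up to 0.0711 TPM), and 5.64 and 5.40 TPM in CHLA 06. COL24A1, another fibril-forming collagen, reached 4.88 TPM in CHLA 06 and 1.93 TPM in CHLA 02 but at most 0.154 TPM in CHLA 04 and CHLA 05.

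The chains of a trimer did not move together in several collagens. COL1A2, whose product joins that of COL1A1 in collagen I, was at 1.36 TPM in CHLA 02, 0.507 and 0.396 TPM in CHLA 04, 7.12 TPM in CHLA 05, and 0 and 0.0259 TPM in CHLA 06. COL1A1 exceeded it by a ratio of 283 in CHLA 02 (16802 against 31 reads), and by at least 9282 in the CHLA 06 replicate with no COL1A2 read, counting 3 reads as the floor. In the other CHLA 06 replicate, 25326 COL1A1 reads stood beside 1 COL1A2 read. In CHLA 05, by contrast, the ratio of COL1A1 to COL1A2 was 1.62. CHLA 06, the line with the highest COL1A1, thus had the lowest COL1A2.

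Collagen VI was split in a similar way. COL6A2 was at 77.2 TPM in CHLA 02, 229.9 and 109.7 TPM in CHLA 04, 80.6 TPM in CHLA 05, and 10.4 and 11.98 TPM in CHLA 06. COL6A1 was at 58.5 TPM in CHLA 02, 92.5 and 38.6 TPM in CHLA 04, 158 TPM in CHLA 05, and 39.0 and 30.7 TPM in CHLA 06. The ratio of COL6A3 to COL6A1 was 27.3 in CHLA 02 and 60.6 and 74.5 in the CHLA 06 replicates, compared with 0.00301 to 0.00723 in CHLA 05 and the CHLA 04 replicates. In CHLA 04 and CHLA 05 the 2 shorter chains were therefore measured with 16 or fewer reads of COL6A3 in each library. The COL6A3 level was a sum over 14 transcripts, of which the shorter ENST00000392003 (3464 bp, 7 exons) held 30.0% of its TPM in CHLA 06 and the longest, ENST00000295550 (10749 bp, 44 exons), had 322 and 196 TPM there.

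Collagen V showed the same division. COL5A1, the partner of COL5A2, was at 36.5 TPM in CHLA 02, 36.3 and 13.5 TPM in CHLA 04, 32.1 TPM in CHLA 05, and 10.2 and 9.94 TPM in CHLA 06. COL5A2 exceeded COL5A1 by 11.7 times in CHLA 02 and by 144 and 87.3 times in the CHLA 06 replicates, while the ratio was 0.104 to 0.208 in CHLA 04 and CHLA 05. COL5A3 stayed at or below 1.27 TPM in every library. Among the chains of collagen IX, COL9A3 was at 8.53 TPM in CHLA 02, 0 and 0.292 TPM in CHLA 04, 33.7 TPM in CHLA 05, and 8.14 and 7.43 TPM in CHLA 06. It was highest in CHLA 05, where COL9A2 was at 2.83 TPM, and COL9A1 reached 2.37 TPM in CHLA 05 and no more than 0.155 TPM elsewhere.

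**Figure D3:**
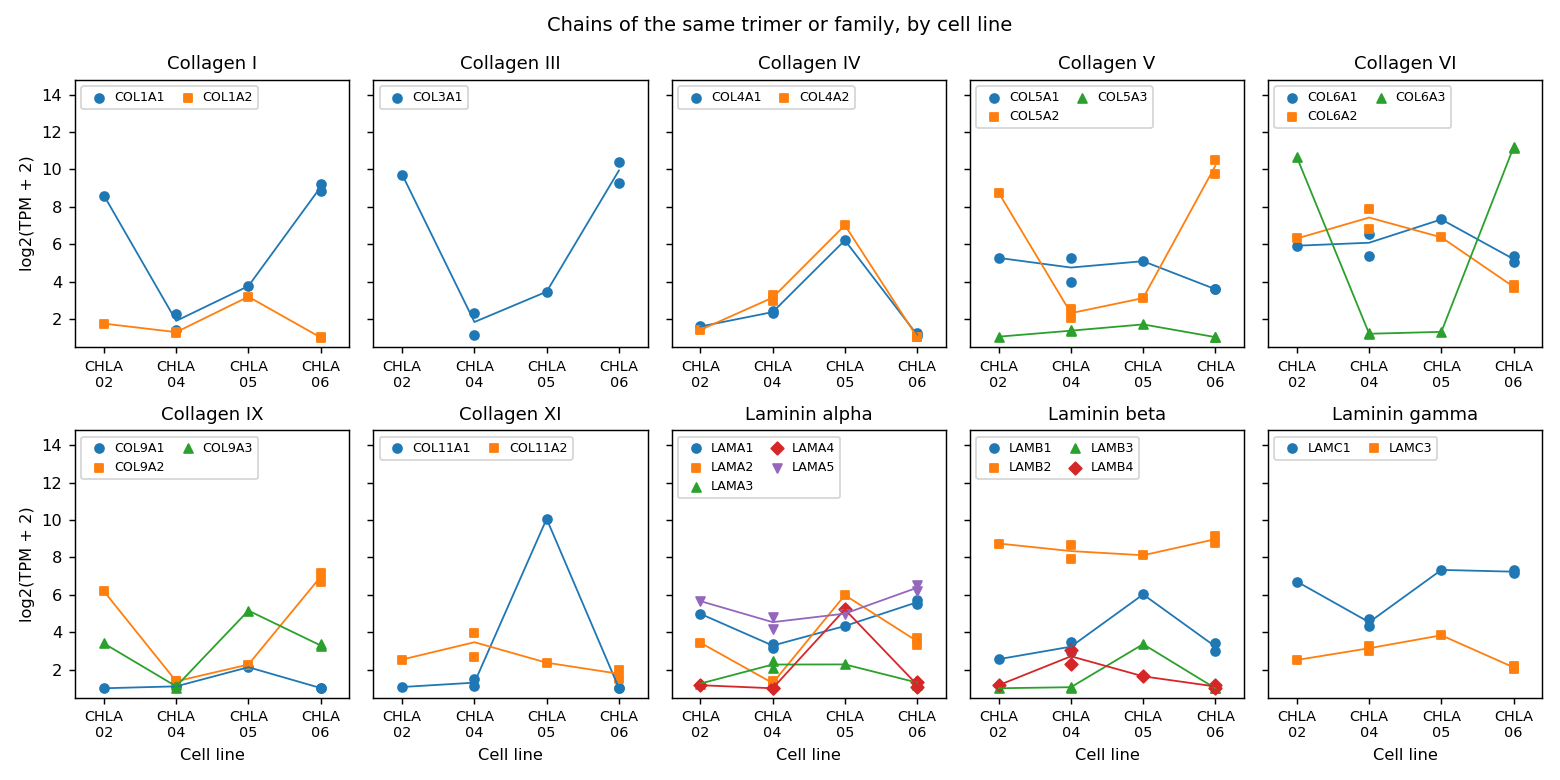
Level on the log2(TPM + 2) scale (vertical axis) of chains of the same collagen or laminin type in each cell line (horizontal axis). Points are libraries and lines join the means of the cell lines. COL4A1 and COL4A2 both peak in CHLA 05, while COL1A1 parts from COL1A2 in CHLA 02 and CHLA 06, COL6A3 from COL6A1 and COL6A2, and COL11A1 from COL11A2 in CHLA 05.

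CHLA 05 had the largest set of chains of its own. It exceeded every other line by at least 1 on the log2(TPM + 2) scale for 16 of 40 chains (40.0%), compared with 5.00% of all genes tested. They were 12 collagens and 4 laminin chains, and the number was again 16 with CHLA 02 left out (5.38% of all genes). CHLA 05 was below every other line by this margin for no chain, beside 1.23% of all genes. No chain was past the rule in CHLA 02 in either direction, where 0.129% of all genes were higher and 0.0323% were lower.

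COL11A1 (chr1:102876467-103108496, minus strand), a fibril-forming collagen best known from cartilage, was at 0.0962 TPM in CHLA 02, 0.781 and 0.146 TPM in CHLA 04, 1070.2 TPM in CHLA 05 (Wilson 95% interval 1059.7 to 1081), and 0.0357 and 0.0161 TPM in CHLA 06. It rested on 39459 reads in CHLA 05 and on 11 or fewer in each other library, and CHLA 05 exceeded the next line by 8.77 on the log2(TPM + 2) scale. COL11A2, its partner, was at 3.81 TPM in CHLA 02, 13.7 and 4.40 TPM in CHLA 04, 3.16 TPM in CHLA 05, and 2.01 and 0.838 TPM in CHLA 06, and so did not share this pattern. COL2A1, which joins both in cartilage fibrils, was at 0.482 TPM in CHLA 02, 1.96 and 1.39 TPM in CHLA 04, 15.2 TPM in CHLA 05, and 0.286 and 0.166 TPM in CHLA 06.

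The basement membrane collagens COL4A1 and COL4A2 were both highest in CHLA 05. COL4A2 (chr13:110305812-110513027, plus strand) was at 0.666 TPM in CHLA 02, 7.87 and 5.79 TPM in CHLA 04, 127 TPM in CHLA 05, and 0.0206 and 0.0745 TPM in CHLA 06. COL4A1 (chr13:110148963-110307149, minus strand) was at 1.03 TPM in CHLA 02, 2.90 and 3.42 TPM in CHLA 04, 72.0 TPM in CHLA 05, and 0.0989 and 0.344 TPM in CHLA 06. CHLA 05 exceeded the next line, CHLA 04, by 3.87 (COL4A2) and 3.84 (COL4A1) on the log2(TPM + 2) scale, and the ratio of COL4A2 to COL4A1 in CHLA 05 was 1.77. The ratio was 0.649 in CHLA 02, 2.72 and 1.69 in the CHLA 04 replicates, and 0.208 and 0.216 in the CHLA 06 replicates, where no more than 9 reads of either gene were found. The antisense genes COL4A2-AS1 and COL4A2-AS2 were listed at 0 in all libraries.

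The other collagens of CHLA 05 were lower. COL21A1, a fibril-associated collagen, was at 0.462 TPM in CHLA 02, 0 in both CHLA 04 replicates, 11.8 TPM in CHLA 05, and 2.06 and 0.891 TPM in CHLA 06. COL15A1, a basement membrane zone collagen, was at 0.0544 TPM in CHLA 02, 0 in both CHLA 04 replicates, 11.0 TPM in CHLA 05, and 0.0238 and 0.254 TPM in CHLA 06. COL1A2, COL6A1, COL9A1, COL9A3, COL16A1 and COL23A1 completed the list, and COL16A1 and COL23A1 peaked at 3.38 and 4.62 TPM. COL6A1 met the rule by 1.25 on the log2(TPM + 2) scale, and by only 0.76 without CHLA 04 replicate 2. COL9A1 met it by 1.02, but fell to 0.99 and 0.90 under other scalings and to 0.56 with the most abundant transcript alone. COL16A1 met it by 1.15 and fell to 0.36 with the most abundant transcript alone.

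Of the laminins, 4 chains belonged to the CHLA 05 set. LAMA2, the alpha chain of muscle and Schwann cell basement membranes, was at 8.81 TPM in CHLA 02, 0.245 and 0.613 TPM in CHLA 04, 61.2 TPM in CHLA 05, and 7.93 and 11.0 TPM in CHLA 06. LAMA4, the alpha chain of vessel walls, was at 0.240 TPM in CHLA 02, 0 in both CHLA 04 replicates (which allows up to 0.108 and 0.0664 TPM), 35.2 TPM in CHLA 05, and 0.0830 and 0.483 TPM in CHLA 06. LAMB1 was at 3.88 TPM in CHLA 02, 5.599 and 9.10 TPM in CHLA 04, 62.9 TPM in CHLA 05, and 6.10 and 8.73 TPM in CHLA 06. LAMB3, the beta chain of epithelial laminin, was at 0 in CHLA 02, 0.0549 and 0.106 TPM in CHLA 04, 8.27 TPM in CHLA 05, and 0 in both CHLA 06 replicates, and LAMA3 was at 2.84 TPM in CHLA 05. With the most abundant transcript alone, the spread of LAMA4 fell from 4.22 to 1.93 (log2) and that of LAMB3 from 2.36 to 1.28. Both were then below the rule for spread but still past the rule for CHLA 05.

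Endothelial markers gave a mixed picture beside the basement membrane chains of CHLA 05. ESAM was at 29.0 TPM in CHLA 05 and at 1.44 to 4.32 TPM in the other libraries, and it was 1 of 2 measured entries of the 6 on that list. The list summed to 29.2 TPM in CHLA 05 and to 3.08 to 6.49 TPM elsewhere, and in CHLA 05 the defining markers PECAM1 and TIE1 and also VWF were at 0 and CDH5 at 0.0793 TPM.

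LAMB2 and LAMC1 reached the highest levels among the laminin chains. LAMB2 (chr3:49121114-49133118, minus strand), the beta chain of synaptic and kidney laminins, was at 427 TPM in CHLA 02, 408 and 236 TPM in CHLA 04, 276 TPM in CHLA 05, and 575 and 428 TPM in CHLA 06. Its lines spanned 0.86 on the log2(TPM + 2) scale, and the CHLA 04 replicates alone spanned 0.78. LAMC1 (chr1:183023460-183145592, plus strand), the gamma chain found in most laminins, was at 102 TPM in CHLA 02, 18.0 and 24.4 TPM in CHLA 04, 159 TPM in CHLA 05, and 140.2 and 158 TPM in CHLA 06, so that only CHLA 04 stood apart. LAMB2 exceeded LAMB1 by 110.01 times in CHLA 02 but by 4.38 times in CHLA 05.

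Among the alpha chains, LAMA5 and LAMA1 were measured throughout. LAMA5, the alpha chain of many adult basement membranes, was at 48.7 TPM in CHLA 02, 26.6 and 15.8 TPM in CHLA 04, 29.9 TPM in CHLA 05, and 91.3 and 71.3 TPM in CHLA 06. LAMA1, the alpha chain of the early embryo, was at 29.6 TPM in CHLA 02, 7.02 and 8.47 TPM in CHLA 04, 18.1 TPM in CHLA 05, and 50.4 and 42.9 TPM in CHLA 06. Both were highest in CHLA 06 and lowest in CHLA 04, and CHLA 06 exceeded the mean of the other lines by 1.31 (LAMA5) and 1.40 (LAMA1) on the log2(TPM + 2) scale. LAMC3, a gamma chain of limited distribution, was at 3.71 TPM in CHLA 02, 7.65 and 6.01 TPM in CHLA 04, 12.3 TPM in CHLA 05, and 2.11 and 2.59 TPM in CHLA 06, and LAMA3 did not exceed 3.46 TPM. Exons of LAMA5 overlap those of ADRM1 on the opposite strand (74.9 to 121 TPM), and exons of LAMB1, COL9A3 and COL18A1 overlap DLD, TCFL5 and SLC19A1 in the same way. Whether the counting used strand is not given in the sources used here, so reads of shared exons may belong to either gene.

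CHLA 04 combined a high level of COL26A1 with low levels of many other chains. COL26A1 (chr7:101362820-101559024, plus strand), a collagen with an EMI domain, was at 20.9 TPM in CHLA 02, 187 and 187 TPM in the CHLA 04 replicates, 10.9 TPM in CHLA 05, and 0.644 and 0.889 TPM in CHLA 06. CHLA 04 exceeded the next line by 3.04 on the log2(TPM + 2) scale, and the CHLA 04 replicates differed by 0.0034. The rule for CHLA 04 also took in COL6A2 and LAMB4, so that it held for 3 of 40 chains (7.5%) and 2.55% of all genes. COL6A2 passed by 1.06, and by 0.44 without CHLA 04 replicate 1. LAMB4, a laminin chain of little known function, was at 0.242 TPM in CHLA 02, 2.93 and 6.16 TPM in CHLA 04, 1.11 TPM in CHLA 05, and 0 and 0.274 TPM in CHLA 06. LAMB4 passed by 1.07, but fell to 0.66 without CHLA 04 replicate 2 and to 0.51 with the most abundant transcript alone.

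CHLA 04 was below every other line by at least 1 for 7 chains (17.5%), compared with 2.59% of all genes, under a rule added after the values were seen. They were COL1A1, COL3A1, COL9A3, COL12A1, LAMA1, LAMA2 and LAMC1. COL12A1, a fibril-associated collagen of dense connective tissue, was at 44.8 TPM in CHLA 02, 3.71 and 5.63 TPM in CHLA 04, 43.1 TPM in CHLA 05, and 66.3 and 67.7 TPM in CHLA 06. LAMA1 passed by 1.05 and fell to 0.94 without CHLA 04 replicate 1, whereas LAMC1 and COL12A1 were lower by over 2.

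CHLA 06 was below every other line by at least 1 for 3 chains (7.5%), namely COL5A1, COL6A2 and COL26A1, beside 4.80% of all genes. The share of chains was thus near that of all genes. COL5A1 passed by 1.16 in size, and by 0.36 without CHLA 04 replicate 1. With CHLA 02 left out, the rule took in 7 chains, adding COL4A1, COL4A2, COL7A1 and LAMC3, beside 9.48% of all genes. COL7A1, which forms the anchoring fibrils of skin, was at 7.07 TPM in CHLA 02, 22.6 and 7.03 TPM in CHLA 04, 9.24 TPM in CHLA 05, and 3.15 and 2.74 TPM in CHLA 06.

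Of the 40 measured chains, 17 were not past the rule for spread. COL18A1, the precursor of endostatin, was at 13.3 TPM in CHLA 02, 28.2 and 13.7 TPM in CHLA 04, 16.1 TPM in CHLA 05, and 10.7 and 6.43 TPM in CHLA 06, and its replicates in CHLA 04 differed by nearly as much as the lines. COL27A1, a fibril-forming collagen of developing cartilage, was between 3.70 and 9.25 TPM in all 6 libraries. COL22A1 reached 1.71 TPM in a CHLA 06 replicate and was otherwise below 1 TPM.

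**Figure D4:**
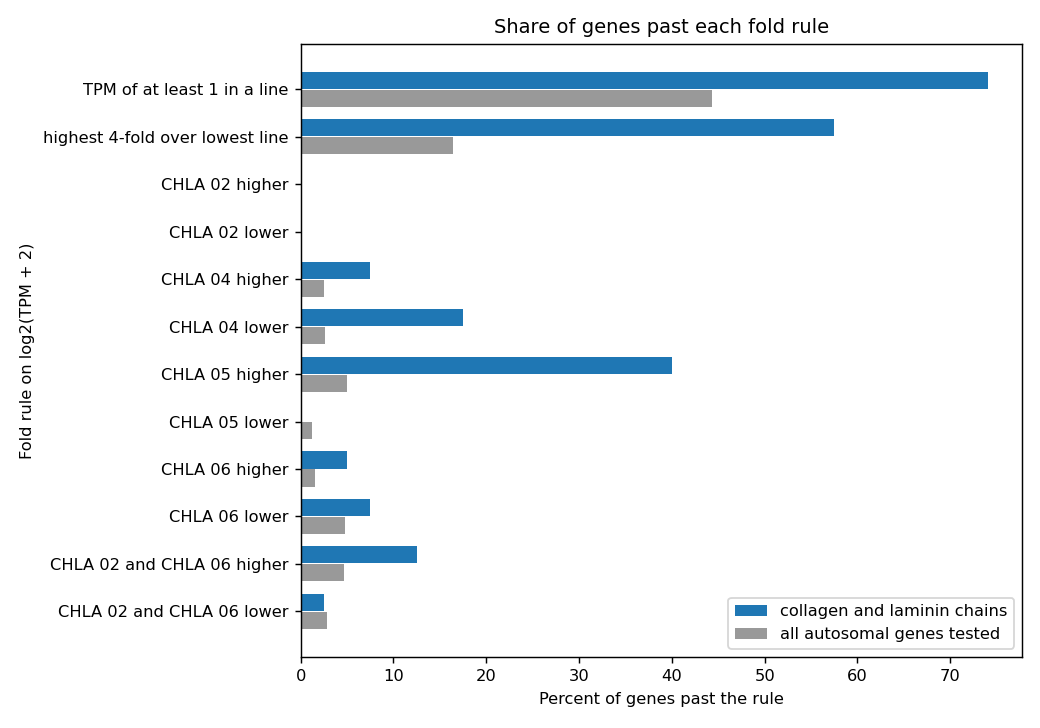
Percent of the collagen and laminin chains (blue) and of all autosomal genes tested (gray) past each fold rule on log2(TPM + 2). Large gaps are for spread over the lines (57.5% against 16.4%) and for higher in CHLA 05 (40.0% against 5.00%), and the shares for lower in CHLA 06 are 7.5% and 4.80%.

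Technical replicates show the spread between libraries of the same line, and only for CHLA 04 and CHLA 06. The other lines had no replicate, and the spread between biological samples of a line was not measured. The error of the differences between lines is therefore not known. The absolute difference between the CHLA 04 replicates on the log2(TPM + 2) scale had a median of 0.27 over the 40 chains and 0.29 over all genes, and it reached 1 for 6 chains (15.0%) and 4.00% of all genes. All 6 were collagens that were higher in replicate 1, namely COL3A1, COL5A1, COL6A1, COL6A2, COL7A1 and COL11A2. In CHLA 06 the difference reached 1 for COL3A1 only, beside 0.970% of all genes. Across 15158 genes with a sequence, the difference between the CHLA 04 replicates had a Pearson correlation of 0.44 with the GC percent of the main transcript, compared with 0.059 in CHLA 06, and across 38 of the 40 chains it was 0.54. These correlations describe single pairs of libraries, and the median GC content was 57.0% for the chains and 49.0% for all genes. The part of base composition in the replicate difference was not tested.

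Enzymes and chaperones that modify and fold collagen included level and line-variable genes. Of 17 measured genes on this list, 5 spread 4-fold over the lines (29.4%, beside 16.4% of all genes), and the median spread was 1.03 on the log2(TPM + 2) scale, beside 0.88 for all genes. P4HB, a subunit of prolyl hydroxylase and the highest of the list, was between 518 and 681 TPM in every library, and the collagen chaperone SERPINH1 was between 304 and 722 TPM. P4HA3, a catalytic subunit of prolyl hydroxylase, was at 29.0 TPM in CHLA 02 and 67.6 and 44.5 TPM in CHLA 06, but at or below 0.271 TPM in CHLA 04 and CHLA 05. PLOD2, a lysyl hydroxylase of collagen, was at 78.0 TPM in CHLA 05 and 6.01 to 10.2 TPM elsewhere, and COLGALT2 was at 21.5 TPM in CHLA 05 and 1.57 to 8.58 TPM elsewhere. P4HA1 and P4HA2 were lowest in CHLA 04, at 26.9 to 29.9 and 7.02 to 7.06 TPM, and P3H2 was lowest in CHLA 05, at 1.13 TPM.

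Of 11 measured genes for procollagen processing and cross-linking, 5 spread 4-fold (45.5%, beside 16.4% of all genes). LOXL4, a lysyl oxidase that cross-links collagen, was at 93.9 TPM in CHLA 02 and 118 and 88.6 TPM in CHLA 06, 0 in both CHLA 04 replicates and 1.26 TPM in CHLA 05. LOXL2 was at 218 and 231 TPM in CHLA 06, 70.2 TPM in CHLA 02 and 9.11 to 24.6 TPM in the other lines. LOXL1 was at 3.37 TPM in CHLA 05 and 54.4 to 126 TPM elsewhere, and LOXL3 was lowest in CHLA 06 at 3.87 and 4.86 TPM. The enhancer of procollagen processing PCOLCE2 was highest in CHLA 05 (141 TPM), and the protease TLL2 in CHLA 04 (243 and 166 TPM).

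Of 6 other basement membrane and matrix proteins, 5 spread 4-fold (83.3%, beside 16.4% of all genes). SPARC, which binds collagen, was at 412 TPM in CHLA 02, 12.8 and 6.22 TPM in CHLA 04, 16.9 TPM in CHLA 05, and 1253 and 592 TPM in CHLA 06, the order seen for COL3A1 and COL5A2. The nidogens, which link laminin to collagen IV, were highest in CHLA 05, with NID1 at 39.9 TPM and NID2 at 23.4 TPM there and at most 11.3 and 0.781 TPM in other libraries. FN1, which encodes fibronectin, was at 581 TPM in CHLA 05, 202 and 265 TPM in CHLA 04, 67.5 TPM in CHLA 02, and 7.59 and 4.17 TPM in CHLA 06. HSPG2, which encodes perlecan, was highest in CHLA 04 at 874 and 498 TPM.

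Of 11 measured receptors, 7 spread 4-fold (63.6%, beside 16.4% of all genes). The shared integrin chain ITGB1 was the highest, at 793 to 1479 TPM, and was among the 4 that did not spread. ITGA6 and ITGB4, which pair as a laminin receptor, were at 235 and 35.4 TPM in CHLA 05 and at most 30.5 and 0.546 TPM elsewhere. The collagen receptor DDR1 was at 61.0 and 54.9 TPM in CHLA 06 and 278 to 895 TPM in the other lines, whereas DDR2 was at 1.76 TPM in CHLA 05 and 33.3 to 57.2 TPM elsewhere. ITGA10, a collagen-binding integrin, was lowest in CHLA 04 (0.604 and 1.45 TPM). ITGA7 was lower in CHLA 02 and CHLA 06 (3.46 to 7.92 TPM) than in CHLA 04 and CHLA 05 (18.4 to 31.7 TPM), and ITGA3 ran from 1.74 TPM in CHLA 04 to 22.3 TPM in CHLA 05.

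Of 9 measured proteases and inhibitors, 4 spread 4-fold (44.4%, beside 16.4% of all genes). MMP1, a collagenase, was at 7.82 TPM in CHLA 02, 17.2 and 27.5 TPM in CHLA 06, and at or below 0.0778 TPM in CHLA 04 and CHLA 05. MMP2, a gelatinase, was at 126 TPM in CHLA 05 and 7.53 to 13.9 TPM elsewhere. TIMP2, an inhibitor of these enzymes, was at 8.22 and 12.8 TPM in CHLA 06 and 113 to 366 TPM in the other lines, and MMP15 was at 1.25 and 1.43 TPM in CHLA 06 and highest in CHLA 04, at 156 and 71.7 TPM.

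**Figure D5:**
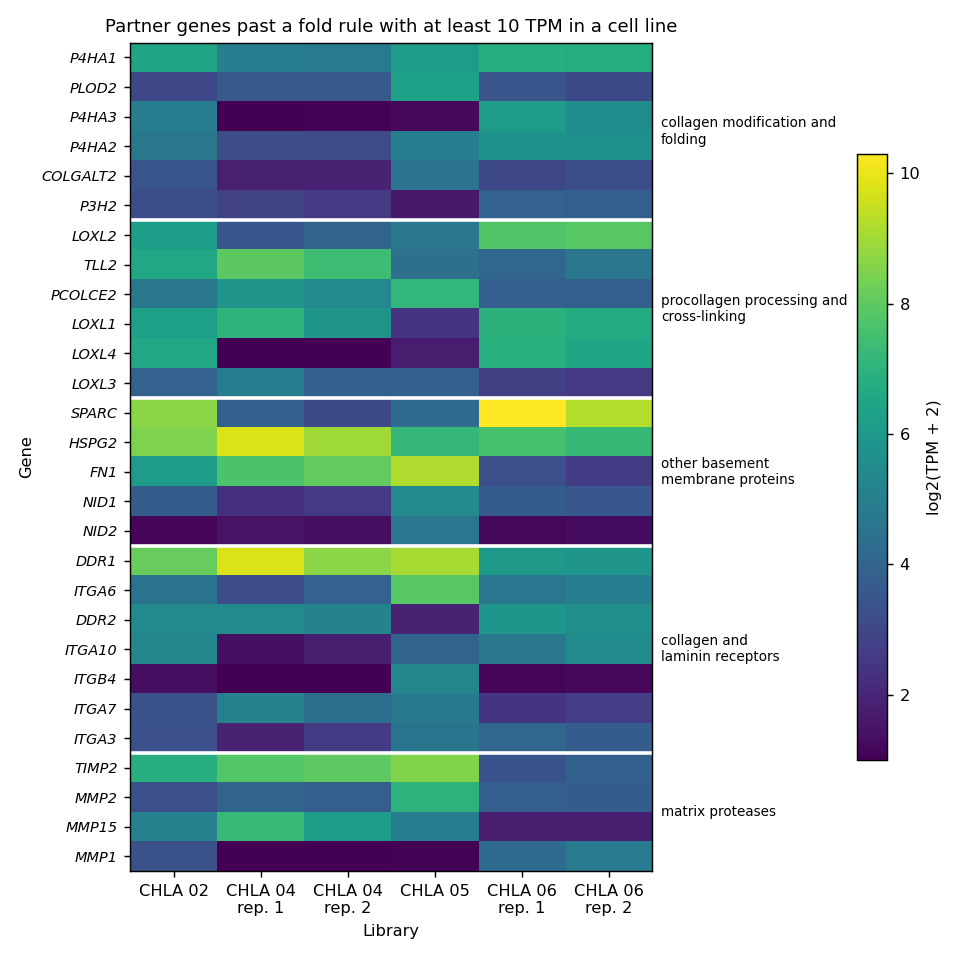
Heat map of log2(TPM + 2) for partner genes past a fold rule with at least 10 TPM in a line (rows, grouped by list) in the 6 libraries (columns). SPARC, P4HA3, LOXL4 and MMP1 are brighter in CHLA 02 and both CHLA 06 libraries than in CHLA 04 and CHLA 05, while PLOD2, NID2, ITGA6 and ITGB4 are brightest in CHLA 05.

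Long terminal repeat (LTR) elements inside the genes were measured in a separate mapping. Their TPM is scaled over LTR elements alone and cannot be compared with gene TPM. The spans of 41 chains held 996 elements, of which 180 had a value above 0 in at least 1 library. In the 40 measured chains, 25.2% of 734 elements lay on the strand of the gene, and of the 132 elements above 0 it was 69.7%. In the 14 chains that were not measured, 19.8% of all elements and 27.1% of the 48 above 0 did.

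The elements with the highest LTR TPM, in COL5A2 and COL11A1, had the pattern of their gene. An MLT1D element in an intron of COL5A2 (chr2:189155713-189156227, gene strand) was at 678 and 523 LTR TPM in the CHLA 06 replicates and 168 LTR TPM in CHLA 02, with 0 and 1.75 LTR TPM in the CHLA 04 replicates and 0 in CHLA 05. A THE1D element in an intron of COL11A1 (chr1:102994769-102995151, gene strand) was at 356 LTR TPM in CHLA 05 (124 reads), 2.59 in CHLA 02 (1 read) and 0 in the other 4 libraries. Within COL26A1, 13 elements reached 10 LTR TPM in a library, all but 1 of them on the gene strand, and LTR37A (chr7:101488826-101489205) was at 35.1 and 75.7 LTR TPM in the CHLA 04 replicates, compared with 15.7 LTR TPM in CHLA 02 and at most 2.89 LTR TPM in the remaining libraries. Not all elements followed the gene around them. An MLT1L element on the opposite strand of LAMB1, in an intron of DLD, was at 22.7 LTR TPM in CHLA 05 and 30.1 to 57.7 elsewhere. LAMB1 itself was highest in CHLA 05, at 62.9 TPM. An MSTD element on the opposite strand of COL10A1, in an intron of NT5DC1, reached 41.6 LTR TPM in a CHLA 06 replicate. COL8A1 also differed from COL5A2, COL11A1 and COL26A1. It had at most 0.650 TPM, yet 7 elements on its opposite strand reached 10 LTR TPM in a library, and the largest read count, 13, was for MLT1G in CHLA 04 replicate 2.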

How the data were processed

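Total RNA of 4 AT/RT cell lines was sequenced in 6 stranded libraries. Per the labels and the study's methods, the authors trimmed reads with Trimmomatic, checked them with FastQC, and mapped them in CLCbio Genomics Workbench to GRCh38 with Ensembl release 82 and, separately, to LTR elements (CASAVA 1.8.2 is given in the submitters' processing notes). The deposited values are TPM per transcript and per LTR element. Whether counting used strand is not given in the sources used here.

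Transcript TPM were summed by gene ID, and technical replicates were averaged on the TPM scale. Genes of chromosomes 1 to 22 with at least 1 TPM in a line (15471) were compared on log2(TPM + 2). With 1 biological sample per line no test was run. A gene was called for spread at a difference of 2 between the highest and lowest line, and for a line at a difference of 1 from every other line. Reads were recovered from TPM and transcript length, and 99.2% to 100% of values were whole within 0.02 reads. Wilson 95% intervals and floors of 3 reads cover counting error only. Only 2 of the rules were tried on simulated data with planted changes, as a check of the code. That check does not show how reliable calls near a cut or calls under the remaining rules are.

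Values of every library are given for members with at least 10 TPM in a line and for called members with at least 5 TPM. Partner genes are named if called with at least 10 TPM, or as the highest of their list. The members and lists were chosen with earlier results of these data known. Rules for lines below all others, for CHLA 02 with CHLA 06, and without CHLA 02 were added after seeing the values. Alternatives were other pseudocounts, filters, scalings and transcript or replicate summaries. Python 3.11.15, numpy 2.4.6, pandas 2.3.3 and scipy 1.17.1 were used. Promoter sequences are from RefSeq. A member that may not be named is not reported here.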

Additional observations from a re-analysis of the deposited data

Results flagged for a closer look

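Collagen chains on chromosome X lie outside the autosomal genes compared above and were measured in the same libraries, which flagged them for a closer look. COL4A5, a chain of the collagen IV network of kidney and other basement membranes, was at 63.1 TPM in CHLA 02, 71.4 and 20.1 TPM in the CHLA 04 replicates, 21.3 TPM in CHLA 05, and 66.0 and 50.4 TPM in the CHLA 06 replicates. It was thus above COL4A1 and COL4A2 in every library but CHLA 05. COL4A6, its neighbor and partner, reached 3.88 TPM in CHLA 04 replicate 1 and was at 0.385 to 1.19 TPM in the other libraries. There was no control line to set these levels against.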

How the results depend on the processing

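No paired analysis was possible because replicate numbers mark technical replicates within CHLA 04 and CHLA 06, and no test was run. With a pseudocount of 0.1 in place of 2, 35 chains were past the rule for spread. The share of all genes past it rose as well, from 16.4% to 31.9%. At this setting 11 chains were lower in CHLA 04, 1 was lower in CHLA 05, and 4 were higher and 8 lower in CHLA 06. For CHLA 02 with CHLA 06, 8 were higher and 8 lower. For rules other than spread, shares over all genes are given above only for the main setting and without CHLA 02. A pseudocount of 1 gave 3 chains lower in CHLA 02 and CHLA 06, and the version without CHLA 06 replicate 2 gave 2 (range 1 to 2). The most abundant transcript alone gave 1 chain higher in CHLA 06, and the maximum of technical replicates gave 5 chains higher in CHLA 04. With CHLA 02 left out, an alternative chosen after seeing the data, 9 chains were higher and 7 lower in CHLA 06, and the summed collagen difference was 2.22. The cause of these shifts was not tested. Leaving out a technical replicate gave 23 to 25 chains for spread, beside 15.9% to 17.2% of all genes, and 15 to 16 for higher in CHLA 05. It gave 1.20 to 1.63 for summed collagen and 0.366 to 0.635 for summed laminin on the log2 scale. Of 330 values of CHLA 06 against the other lines for 30 named chains, 197 moved by less than the replicate SD, and 133 by more. The sign changed in 9 of them, namely 7 of LAMA2, 1 of COL21A1 and 1 of COL9A3, whose main differences were at most 0.23 in size (log2). None of the chains at a difference of 1 or more changed sign under these alternatives.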
